A study of Homo sapiens with 6 samples.

Results

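Retinoic acid acts through a small set of proteins, and 10 of their genes were followed here: the receptors RARA, RARB, RARG, RXRA and RXRB, the binding proteins CRABP1 and CRABP2, the clearing enzymes CYP26A1 and CYP26B1, and the retinaldehyde reductase DHRS3. The genes were chosen by name, and each had 1 row among the 61860 genes of the deposited table. RNA came from SH-SY5Y, a human neuroblastoma line that becomes neuron-like in all-trans retinoic acid. In the IR+Oligonol group (3 libraries), retinoic acid-differentiated cells were made insulin resistant over 24 h with insulin at 100 nM and D-glucose at 30 mM, and were given Oligonol, a polyphenol preparation from lychee fruit, at 500 ng/mL for 24 h. In the IR control group (3 libraries), the cells had the same differentiation and induction without Oligonol. All 6 libraries therefore come from cells that had been given retinoic acid, at a dose the labels do not state, and cells without it were not analysed here. The comparison asks how Oligonol altered the transcriptome of such cells.

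Retinoic acid enters the nucleus on CRABP2 and binds a heterodimer of an RAR and an RXR, which sits on response elements in target genes. The ligand-bound pair exchanges corepressors for coactivators. Several targets belong to the pathway itself: RARB is an autoinduced receptor, and the CYP26 enzymes oxidise retinoic acid and DHRS3 turns its precursor retinaldehyde back to retinol, so that the signal limits itself. The classical response element is a direct repeat of a hexamer with 5 bases between its copies, called DR5.

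The promoters of RARB and CYP26A1 are shown because, of the 20 RefSeq promoter windows of the 10 genes (GRCh38.p14, 250 bases before to 50 after a start), these were the 2 that held a DR5. The search took AGGTCA as a half-site, or its variants AGTTCA and GGGTCA and also GGTTCA, on both strands, and every spacer of 0 to 8 bases between 2 half-sites was looked at. A DR5 contains 2 of these half-sites. None of the other spacers occurred in the 20 windows; each occurred in 0.0399 to 0.159% of all windows. RARB has 4 such windows, and the 1 with the repeat has its 250 upstream bases at chr3:25428013-25428262 on the plus strand. CYP26A1 has 2 windows, and the 1 with the repeat has its upstream bases at chr10:93073643-93073892, also on the plus strand. Capitals mark the half-sites of the DR5. The RARB window holds 3 half-sites, the further one left in lower case.
RARB promoter: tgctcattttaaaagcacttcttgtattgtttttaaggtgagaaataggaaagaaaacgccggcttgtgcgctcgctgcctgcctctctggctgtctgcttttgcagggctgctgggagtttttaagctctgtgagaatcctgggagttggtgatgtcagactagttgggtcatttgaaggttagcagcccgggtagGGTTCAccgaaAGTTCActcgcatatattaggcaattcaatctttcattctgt
CYP26A1 promoter: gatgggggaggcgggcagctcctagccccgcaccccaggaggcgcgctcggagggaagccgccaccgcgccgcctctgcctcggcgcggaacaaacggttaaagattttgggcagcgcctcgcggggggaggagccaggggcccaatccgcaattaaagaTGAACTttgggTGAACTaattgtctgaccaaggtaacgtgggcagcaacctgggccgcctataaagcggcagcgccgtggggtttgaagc

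The RARB element lies 53 to 37 bases before the start, on the strand of the gene. The CYP26A1 element lies 90 to 74 bases before the start, on the opposite strand. Read in the same direction, the elements compare as follows.
RARB element: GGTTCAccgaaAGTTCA
CYP26A1 element: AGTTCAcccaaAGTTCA

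Among all 35116 RefSeq windows 31 held a DR5 (0.0883%), while a single half-site was common (38.6% of windows, and 9 of the 20 windows of the 10 genes). A match describes letters and not binding, and the gene-level values do not tell which start was used.

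Estimated counts summed to 19457923 to 20912945 in the IR+Oligonol libraries and to 22738203 to 32209583 in the IR control libraries. Protein-coding genes held 10.01 to 12.34% of them in IR+Oligonol libraries and 6.24 to 6.83% in IR control libraries. The deposited values were read as abundances per transcript length, on a fit to low genes that was itself chosen to favour whole reads and is no independent check. The order of levels between genes and the size of each gene's share rest on that reading, whereas fold changes of a gene compare it with itself. Levels below are CPM, each gene's part of a library's counts scaled to a common total, after TMM scaling. The median transcript GC content of protein-coding counts was 51.2, 54.1 and 51.6% in IR+Oligonol libraries 1 to 3, against 56.2, 56.3 and 56.0% in IR control libraries 1 to 3, and fold changes followed GC content (Spearman's rho -0.851 over 11719 genes of that class, a description, since genes are no replicates). Results of the 10 genes and of the named genes around them are therefore also given with the GC trend of every library removed (called corrected). GC content and treatment move together in these 6 libraries, so their parts cannot be told apart. The neuroblast markers PHOX2A, HAND2, GATA3 and DBH were present in both groups, and PHOX2A, the nearest of them to the threshold, had 45.1 ± 15.8 CPM with Oligonol and 79.7 ± 10.4 CPM in controls (SD, n = 3 each; adjusted p = 0.0532; corrected log2 fold change 0.16, adjusted p = 0.555). TH, the noradrenergic enzyme gene, stood at only 0.85 to 1.25 estimated counts in IR+Oligonol libraries and 1.10 to 1.79 in IR control libraries. The 8 neuroblast markers summed to 85.5 to 122 CPM in IR+Oligonol libraries and 140 to 167 CPM in IR control libraries. Of 6 neuronal markers MAP2 and ELAVL4 rose and TUBB3 and SYP fell, and of 3 tested mesenchymal markers CD44 rose. VIM (log2 fold change -0.44, adjusted p = 0.201) and FN1 (-0.37, adjusted p = 0.139) were lower without passing the threshold. Corrected, VIM was at -0.29 (adjusted p = 0.404) and FN1 at -0.51 (adjusted p = 0.0866). The 5 markers that had risen or fallen all missed the threshold once corrected. MAP2 was then at 0.60 (adjusted p = 0.0583), ELAVL4 at 0.03 (adjusted p = 0.908), TUBB3 at -0.22 (adjusted p = 0.448), SYP at -0.60 (adjusted p = 0.0533) and CD44 at 0.89 (adjusted p = 0.098). The 6 mesenchymal markers summed to 28.0 to 29.5 CPM with Oligonol and 30.3 to 47.3 CPM in controls. Glial markers summed to 1.43 to 1.86 CPM in IR+Oligonol libraries and 1.04 to 1.48 CPM in IR control libraries, and myeloid markers to 0.424 to 0.839 CPM and 0.421 to 1.27 CPM, with no marker of either list at 0 throughout. Their part in the results was not tested. In such bulk RNA, fewer cells of a type and less RNA per cell cannot be told apart.

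All 10 genes had enough counts to be tested. With Oligonol, 8 fell (RARA, RARG, RXRA, RXRB, CRABP1, CRABP2, CYP26A1 and DHRS3), RARB rose, and CYP26B1 did not pass the threshold (edgeR's quasi-likelihood test with Benjamini-Hochberg adjustment over 16574 genes, adjusted p under 0.05). Of all tested genes 23.0% were lower and 26.0% higher by the same test, 48.9% in all, and of protein-coding genes 27.5% were lower and 27.1% higher. The median log2 fold change of the 10 genes was -0.82, against 0.15 for all tested genes. Scaled by library totals in place of TMM all 10 were higher with Oligonol, and 5 passed the threshold in that direction. The median gene was higher too (1.53), and 9 of the 10 lay below it on that scale, as under TMM, with RARB above it. With the GC trend removed, CYP26A1 alone stayed past the threshold, among 2.56% lower and 2.89% higher of 16200 genes (5.45% in all), and the median of the 10 became -0.10, against 0.03 for all tested genes. The number of the 10 genes called was 9 without IR+Oligonol 2 and 5 without IR control 1. It was 1 without IR control 2, IR+Oligonol 1 or IR+Oligonol 3 (RARB each time). Without IR control 3 it was 0, where 8 had an unadjusted p under 0.05. The number over all genes moved too, from 9492 of 20431 without IR+Oligonol 2 to 6111 of 19920 without IR control 1. Without IR control 2, IR+Oligonol 1 and IR+Oligonol 3 it was 2511 of 20048, 2344 of 17134 and 1835 of 17188. Without IR control 3 it was 782 of 20071, with 8500 genes at an unadjusted p under 0.05.

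**Figure D1:**
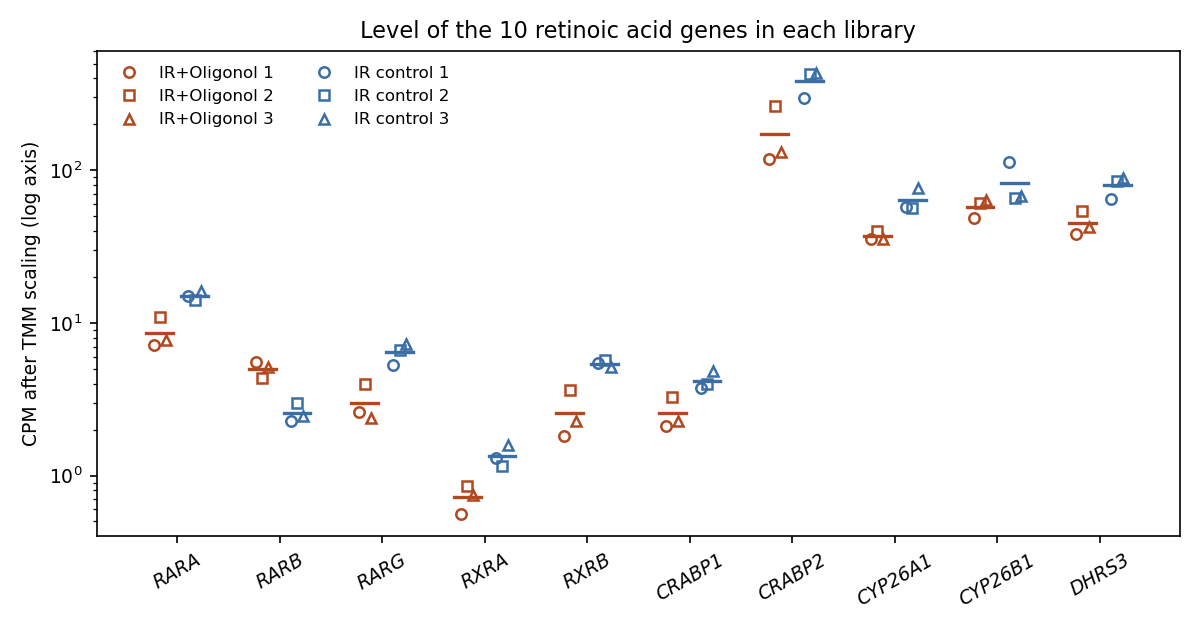
Level of each gene in each library (CPM after TMM scaling, log axis; symbols are libraries, bars are group means). IR+Oligonol libraries lie below all IR control libraries for 9 genes and above them for RARB; the groups did not overlap, lower with Oligonol, for 28.9% of all tested genes and, higher, for 33.9%.

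RARA (chr17:40309180-40357643, plus strand), RARB (chr3:24687887-25597932, plus strand) and RARG (chr12:53210567-53232980, minus strand) encode the receptors that bind retinoic acid itself. Positions of genes are those of the deposited table (GRCh38.p13). RARB stood at 5.51, 4.35 and 5.13 CPM in IR+Oligonol libraries 1 to 3, against 2.26, 2.98 and 2.45 CPM in IR control libraries 1 to 3. Every Oligonol library was above every control, the lowest of them being library 2. RARB rose 1.95-fold (log2 fold change 0.96, SE 0.19, adjusted p = 0.00895). Before any scaling, the estimated counts of RARB were 206, 112.24 and 178.22 in IR+Oligonol libraries, against 38.31, 45.91 and 41.86 in IR control libraries. Scaled by library totals alone, the median gene was itself higher with Oligonol (log2 fold change 1.53). Removal of the GC trend left the RARB groups apart, as for 19.0% of genes that were higher and 16.1% that were lower. RARB was then at 4.18, 3.93 and 4.02 CPM in IR+Oligonol libraries and 2.80, 3.54 and 3.11 CPM in IR control libraries. Its log2 fold change was then 0.36 (SE 0.13, adjusted p = 0.125), no longer past the threshold.

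RARA, the receptor with the highest level of the 3, had 7.16, 11 and 7.69 CPM in IR+Oligonol libraries, against 14.9, 14.1 and 16.2 CPM in IR control libraries. It fell, with a log2 fold change of -0.81 (SE 0.22, adjusted p = 0.0203). After that correction RARA stood at 11.8, 11.9 and 11.8 CPM in IR+Oligonol libraries and at 11, 9.92 and 11.4 CPM in IR control libraries (log2 fold change 0.13, SE 0.11, adjusted p = 0.46). The direction of RARA therefore turned with that choice, and its corrected groups did not overlap either.

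RARG had 2.59, 4.0 and 2.39 CPM in IR+Oligonol libraries, against 5.30, 6.66 and 7.25 CPM in IR control libraries. Its fall was 2.15-fold (log2 fold change -1.10, SE 0.24, adjusted p = 0.0113), and the groups did not overlap. After removal of the GC trend they overlapped, with means of 4.04 ± 0.377 CPM with Oligonol and 4.63 ± 0.598 CPM in controls (SD, n = 3 each; log2 fold change -0.20, adjusted p = 0.411). RARB transcripts had a median GC content of 45.7%, RARA transcripts of 62.6% and RARG transcripts of 61.5%. The receptor that rose thus had the lowest GC content of the family.

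**Figure D2:**
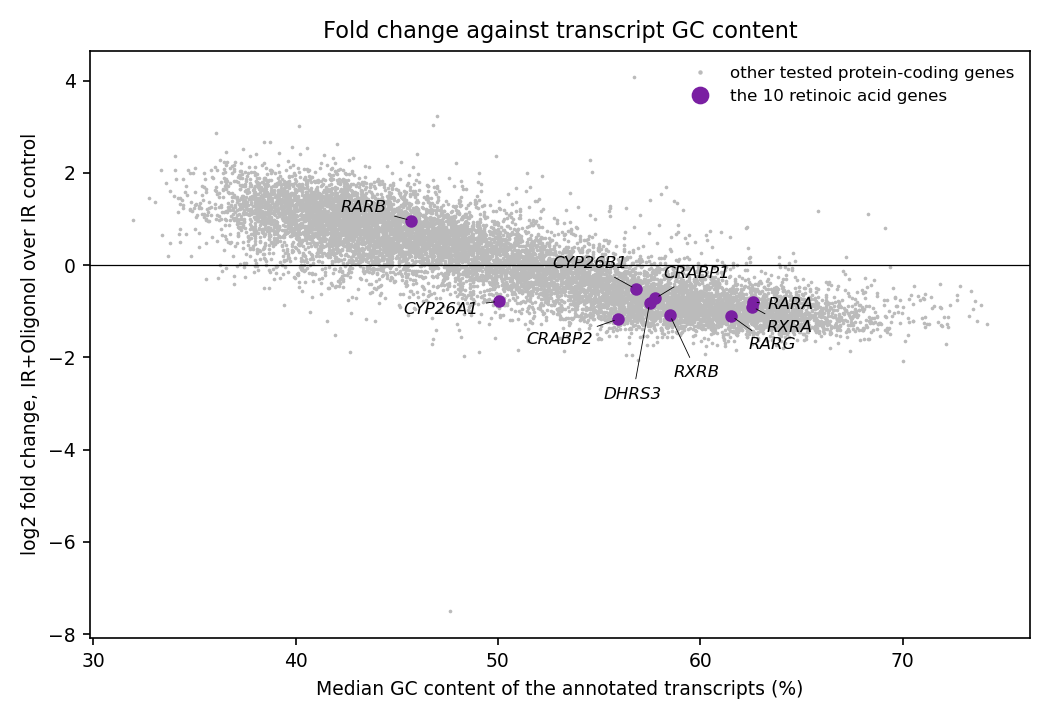
log2 fold change (IR+Oligonol over IR control) against the median GC content of a gene's transcripts (%), 1 point per tested protein-coding gene, with the 10 retinoic acid genes in purple. RARB, at 45.7% GC, lies on the upper arm of the trend, and CYP26A1, at -0.79, lies below it.

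Shares within a library do not depend on how libraries are scaled against each other. RARB made up 36.1, 22.5 and 33.8% of the summed estimated counts of RARA, RARB and RARG in IR+Oligonol libraries, against 10.2, 12.5 and 9.44% in IR control libraries. The means were 30.8% ± 7.29 with Oligonol and 10.7% ± 1.61 in controls (SD, n = 3 each; exact permutation p = 0.1, 2-sided; a design of 3 and 3 libraries cannot go lower). RARA held 51.5% ± 5.01 with Oligonol and 62.8% ± 3.43 in controls, and RARG 17.7% ± 2.59 with Oligonol and 26.5% ± 2.54 in controls (exact permutation p = 0.1 for each). For these 3 shares the groups did not overlap. The corrected share of RARB was 20.3% ± 0.649 with Oligonol and 17% ± 2.12 in controls. The lowest Oligonol library (19.6%) was then just above the highest control (19.4%). The corrected share of RARA was 59.5% ± 1.21 with Oligonol and 58.1% ± 3.74 in controls, so its direction turned and the groups overlapped. That of RARG was 20.2% ± 1.52 with Oligonol and 24.9% ± 2.19 in controls, with the groups still apart. The 3 shares make up a whole in each library, so they are not separate results.

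**Figure D3:**
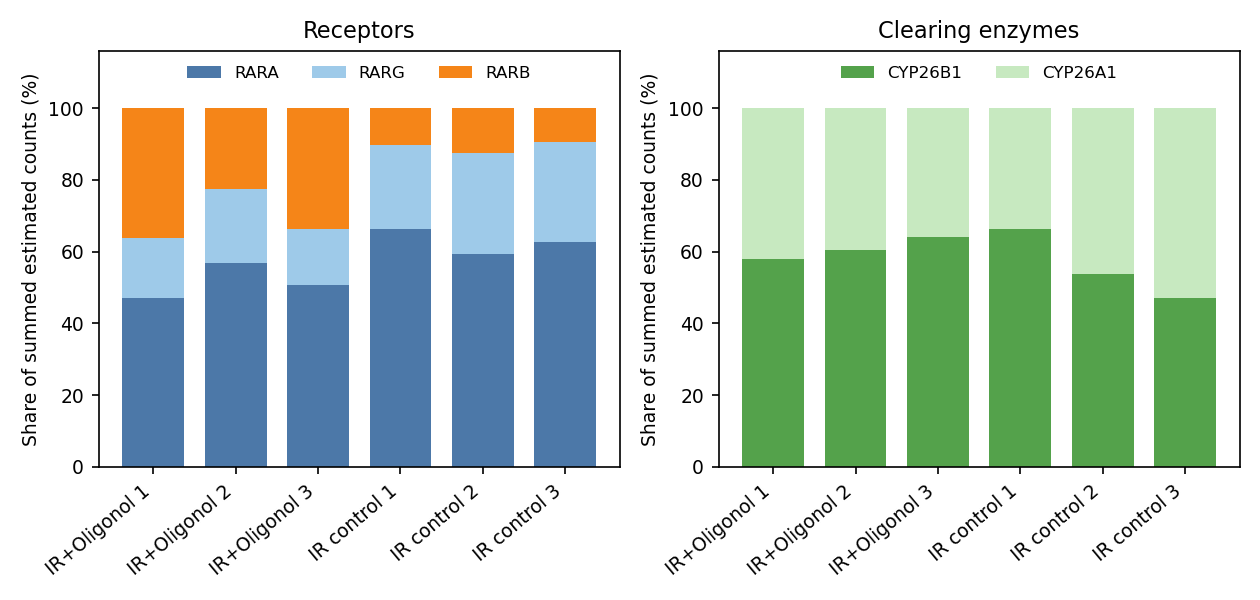
Share (%) of each receptor gene in the summed estimated counts of RARA, RARG and RARB, and of each enzyme gene in those of CYP26B1 and CYP26A1, 1 bar per library. RARB takes 22.5 to 36.1% in IR+Oligonol libraries and 9.44 to 12.5% in IR control libraries, while the shares of CYP26B1 overlap between the groups.

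RXRA (chr9:134317098-134440585, plus strand) and RXRB (chr6:33193588-33200665, minus strand) encode the partner receptors that also pair with thyroid hormone, vitamin D and lipid receptors. RXRB had 1.82, 3.65 and 2.28 CPM in IR+Oligonol libraries, against 5.42, 5.69 and 5.14 CPM in IR control libraries. RXRB fell 2.11-fold (log2 fold change -1.08, SE 0.26, adjusted p = 0.0141), and Oligonol library 2 was the one nearest to the controls. RXRA was the lowest of the 10 genes, at 0.561, 0.855 and 0.749 CPM in IR+Oligonol libraries against 1.31, 1.16 and 1.58 CPM in IR control libraries. It fell as well (log2 fold change -0.91, SE 0.27, adjusted p = 0.0261), on about 48 to 63 reads a library with Oligonol and about 72 to 104 in controls. Corrected for the GC trend, the log2 fold change of RXRB was -0.36 (SE 0.16, adjusted p = 0.205) and that of RXRA 0.05 (SE 0.21, adjusted p = 0.94). RXRB made up 77.5% ± 3.35 of the pair with Oligonol and 80.0% ± 3.06 in controls (SD, n = 3 each; exact permutation p = 0.4), with overlapping groups. The corrected means were 76.2% ± 4.11 with Oligonol and 81.1% ± 3.41 in controls, again with overlapping groups. The third family member, RXRG, was listed at 0 in 5 libraries and at 0.14 estimated counts in IR control 2.

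CRABP1 (chr15:78340353-78348225, plus strand) and CRABP2 (chr1:156699606-156705816, minus strand) encode the small cytosolic proteins that carry retinoic acid, CRABP2 being known for delivery to RARs and CRABP1 for holding the ligand in the cytosol. CRABP2 had the highest level of the 10 genes, at 118, 265 and 132 CPM in IR+Oligonol libraries against 297, 425 and 435 CPM in IR control libraries. By mean level it ranked 39 among 11728 tested protein-coding genes with Oligonol and 38 in controls. It fell 2.25-fold (log2 fold change -1.17, SE 0.37, adjusted p = 0.0331). The 2 groups were close at their edges, with Oligonol library 2 just under control 1. CRABP1 had 2.11, 3.27 and 2.28 CPM in IR+Oligonol libraries, against 3.75, 3.95 and 4.85 CPM in IR control libraries, and fell (log2 fold change -0.72, SE 0.22, adjusted p = 0.0291). Neither passed with the GC trend removed, at -0.67 (SE 0.29, adjusted p = 0.187) for CRABP2 and -0.03 (SE 0.13, adjusted p = 0.899) for CRABP1. CRABP1 made up 1.55% ± 0.295 of the pair with Oligonol and 1.09% ± 0.164 in controls (SD, n = 3 each; exact permutation p = 0.2), with overlapping groups. The corrected means were 1.65% ± 0.362 with Oligonol and 1.03% ± 0.161 in controls. The lowest Oligonol library (1.24%) then lay just above the highest control (1.18%).

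CYP26A1 (chr10:93073475-93077885, plus strand) and CYP26B1 (chr2:72129238-72147862, minus strand) encode the cytochrome P450 enzymes that clear retinoic acid, and both are known targets of it. CYP26A1 had 35.4, 39.9 and 35.5 CPM in IR+Oligonol libraries, against 57.5, 56.9 and 76.6 CPM in IR control libraries. The Oligonol libraries lay close together and below all controls, and the log2 fold change was -0.79 (SE 0.24, adjusted p = 0.0272). CYP26A1 was the 1 gene of the 10 whose fall did not shrink when the GC trend was removed. Its levels were then 33.9, 38.7 and 33.5 CPM in IR+Oligonol libraries and 61.0, 60.9 and 77.1 CPM in IR control libraries, with a log2 fold change of -0.91 (SE 0.16, adjusted p = 0.0363). Leaving out 1 library as well kept it between -0.80 and -1.02, but its adjusted p was then 0.0519 to 0.159, so the call rests on all 6 libraries. On library totals alone, without TMM, CYP26A1 was higher with Oligonol, at 0.61 (edgeR, adjusted p = 0.0147), but below the median of all genes (1.53) on that scale.

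CYP26B1 had 48.7, 60.8 and 63.5 CPM in IR+Oligonol libraries, against 113, 66.3 and 68.0 CPM in IR control libraries. Control 1 stood far above the other libraries, the groups did not overlap, and the log2 fold change was -0.52 (SE 0.29, adjusted p = 0.173). Without control 1 it was -0.33 (adjusted p = 0.347), and with the GC trend removed 0.09 (SE 0.27, adjusted p = 0.856). CYP26B1 made up 60.8% ± 3.15 of the pair with Oligonol and 55.7% ± 9.83 in controls (SD, n = 3 each; exact permutation p = 0.5). The corrected means were 66.7% ± 4.42 with Oligonol and 49.4% ± 10.4 in controls, and the lowest Oligonol library (62.4%) lay just above the highest control (60.9%). The third enzyme, CYP26C1, had too few counts for a test, at 3.86 to 5.29 estimated counts in IR+Oligonol libraries and 3.20 to 4.21 in IR control libraries.

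DHRS3 (chr1:12567910-12618210, minus strand), the reductase that lowers the supply of retinaldehyde, had 38.1, 54.2 and 42.7 CPM in IR+Oligonol libraries, against 65.3, 85.5 and 88.9 CPM in IR control libraries. It fell 1.78-fold (log2 fold change -0.83, SE 0.26, adjusted p = 0.0305). The corrected groups overlapped, at 56.4 ± 1.61 CPM with Oligonol and 62.9 ± 8.16 CPM in controls (SD, n = 3 each; log2 fold change -0.16, adjusted p = 0.56).

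**Figure D4:**
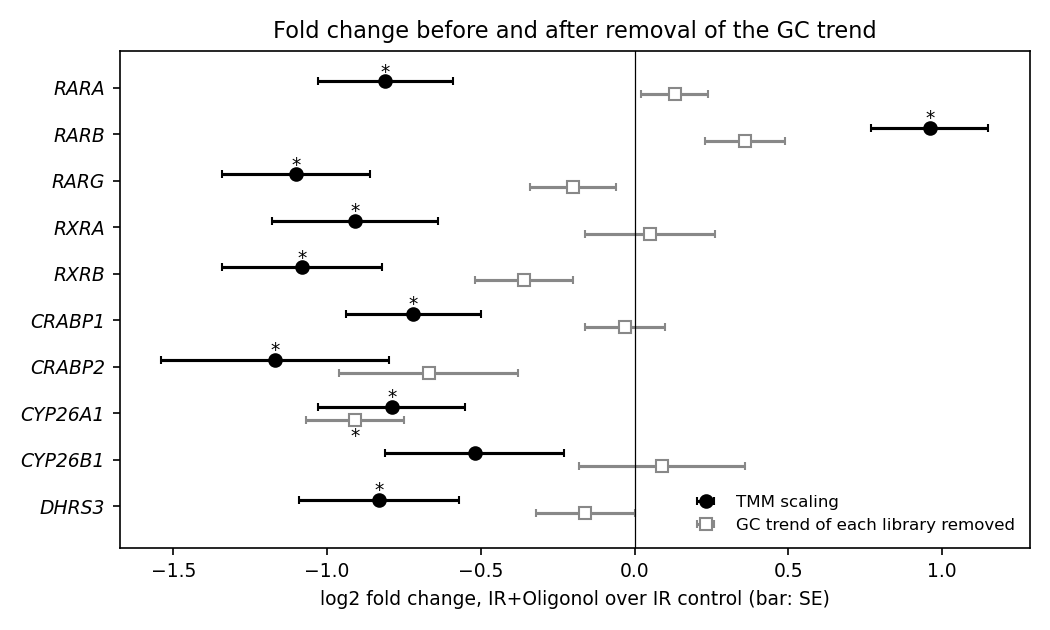
log2 fold change (IR+Oligonol over IR control) of each gene with its SE, after TMM scaling (filled) and with the GC trend of each library removed (open); a star marks an adjusted p under 0.05. After TMM scaling 9 genes carry a star, and with the GC trend removed CYP26A1 alone does, at -0.91.

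The order of levels was the same at the top in both groups: CRABP2, then CYP26B1, DHRS3 and CYP26A1, then RARA. Ranges of CYP26B1, DHRS3 and CYP26A1 overlapped between neighbours in that order. RARB stood sixth with Oligonol, above RARG, RXRB, CRABP1 and RXRA, and ninth in controls, above RXRA only. IR+Oligonol 2 was the Oligonol library nearest to the control mean for 9 of the 10 genes and for 68.4% of all tested genes. Its protein-coding GC content was also nearest to that of the controls. Without it the log2 fold change of RARG was -1.55, that of RXRB -1.60 and that of CRABP2 -1.82.

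The genes around these 10 were taken from lists by role. Beside the counts of these lists, and of the DR5 genes below, stand the shares over all tested genes. Of these 23.0% were lower and 26.0% higher, and 2.56% and 2.89% with the GC trend removed. No list was tested against these shares. In uptake and storage 3 of 7 were tested, 2 fell and none rose. STRA6, the membrane receptor for retinol-binding protein, had 14.1 ± 2.85 CPM with Oligonol and 28.2 ± 0.748 CPM in controls (SD, n = 3 each; log2 fold change -1.0, SE 0.22, adjusted p = 0.0113). DGAT1, which can esterify retinol, was at -1.20 (SE 0.25, adjusted p = 0.00993). Corrected, the log2 fold change of STRA6 was -0.10 (adjusted p = 0.573) and that of DGAT1 -0.28 (adjusted p = 0.205).

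Of 14 genes listed under retinoic acid synthesis 7 were tested, of which 2 fell and none rose. These were DHRS4 (log2 fold change -0.95, SE 0.19, adjusted p = 0.00938) and RDH13 (-0.88, SE 0.18, adjusted p = 0.00994), both of the dehydrogenase superfamily that acts on retinoids. RNA levels do not tell whether such an enzyme oxidises retinol or reduces retinaldehyde, so these falls are not read as less synthesis. Neither call held with the correction, which left DHRS4 at -0.21 (adjusted p = 0.406) and RDH13 at -0.07 (adjusted p = 0.804). RDH10, which oxidises retinol to retinaldehyde, had 2.54 ± 0.325 CPM with Oligonol and 1.59 ± 0.478 CPM in controls (log2 fold change 0.67, adjusted p = 0.0506; corrected 0.31, adjusted p = 0.42). The retinaldehyde dehydrogenases that make retinoic acid were low: ALDH1A1 was listed at 0 in 5 libraries, ALDH1A3 at 6.58 to 8.23 estimated counts with Oligonol and 4.48 to 5.45 in controls, and ALDH1A2 had a log2 fold change of 0.16 (SE 0.53, adjusted p = 0.817; corrected -0.21, adjusted p = 0.836). FABP5, a fatty acid carrier that can also bind retinoic acid, rose by 1.36 on the log2 scale (SE 0.38, adjusted p = 0.0209). Its corrected value was 0.68 (adjusted p = 0.235).

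Of 16 genes of coregulators, the proteins through which nuclear receptors repress or activate, 15 were tested, 8 rose and 3 fell (list median 0.68, against 0.15 for all tested genes). TBL1XR1, a subunit of the corepressor complex, had 49.9, 27.8 and 59.3 CPM in IR+Oligonol libraries, against 14.9, 13.3 and 7.25 CPM in IR control libraries (log2 fold change 1.95, SE 0.38, adjusted p = 0.00899). The coactivator NCOA3 rose (1.09, SE 0.24, adjusted p = 0.0113), and so did the corepressor NCOR1 (0.68, SE 0.16, adjusted p = 0.0129). The list's transcripts had a median GC content of 48.4%, against 57.6% for the 10 retinoic acid genes. Corrected for it, 1 of the 15 passed, the deacetylase HDAC3 (-0.60, SE 0.12, adjusted p = 0.0454), named here after its value was seen. TBL1XR1 was then at 1.33 (SE 0.32, adjusted p = 0.0601), NCOA3 at 0.29 (adjusted p = 0.519) and NCOR1 at 0.17 (adjusted p = 0.319).

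Among 13 receptors that pair with RXR 7 were tested, 3 fell and none rose. The thyroid hormone receptor THRA had a log2 fold change of -1.12 (SE 0.24, adjusted p = 0.0105), the oxysterol receptor NR1H2 of -1.07 (SE 0.26, adjusted p = 0.0147), and NR4A1 of -0.68 (SE 0.20, adjusted p = 0.026). Corrected, THRA stood at -0.30 (adjusted p = 0.232), NR1H2 at -0.12 (adjusted p = 0.624) and NR4A1 at 0.26 (adjusted p = 0.501).

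Of 17 other genes known to respond to retinoic acid 11 were tested, 4 rose and 2 fell. MEIS1, a homeodomain gene, rose (log2 fold change 1.11, SE 0.25, adjusted p = 0.0117), as did NTRK2, the BDNF receptor TrkB (0.82, SE 0.19, adjusted p = 0.0119). Corrected, MEIS1 stood at 0.53 (adjusted p = 0.146) and NTRK2 at 0.11 (adjusted p = 0.655). With the correction 2 of the 11 passed, both higher. HOXD4 was 1 of them (1.19, SE 0.22, adjusted p = 0.0372), against 0.47 (adjusted p = 0.0809) without the correction, and is named after its value was seen. HOXB1, an early target of retinoic acid in embryonic cells, was listed at 0 in all 6 libraries.

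**Figure D5:**
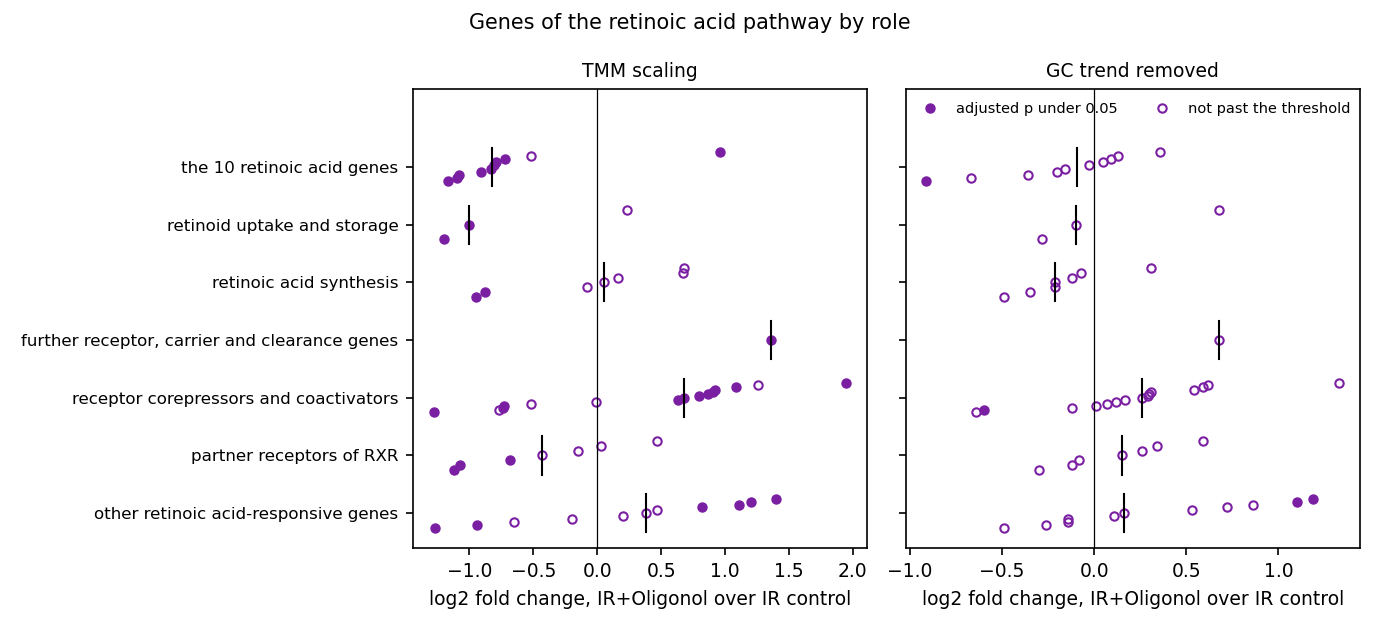
log2 fold change (IR+Oligonol over IR control) of each tested gene by role, after TMM scaling (left) and with the GC trend removed (right); filled points have an adjusted p under 0.05 and black bars are list medians. The median of the 10 retinoic acid genes lies at -0.82 on the left and at -0.10 on the right, and that of the coregulators at 0.68 and 0.26.

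Of the 29 genes with a DR5 in a RefSeq window, a set defined by sequence after the data were seen, 19 were matched by symbol and 8 were tested. RARB rose and 3 fell (CYP26A1, HROB and PRSS27), with a median log2 fold change of -0.13. Corrected, CYP26A1 alone passed (median -0.05), with HROB at -0.07 (adjusted p = 0.858) and PRSS27 at -0.28 (adjusted p = 0.41).

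As a description over the 6 libraries, with no test, the protein-coding genes whose log2 CPM ran closest to RARB were CENPJ, UGGT2 and ARPP19, with Pearson's r of 0.9991, 0.9987 and 0.9985. Those closest to RARG were EPOP, LZTS2 and DACT3, at 0.9996, 0.9995 and 0.9994. The libraries share the group difference and the GC trend, and 11650 genes were searched for each, so such values are a description only.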

How the data were processed

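Total RNA of 6 samples gave stranded libraries, sequenced as paired reads of 100 nt, per the labels' protocols. Named in the submitters' processing notes, with no role or order, are kallisto 0.46.1, FastQC, edgeR and the build GRCh38.p13. The authors deposited estimated counts per gene and, beside them, a scaled signal. That deposited signal differs from the estimated counts by 1 factor in each library and was set aside. No source used here states the step from transcripts to genes. The deposited estimated counts were read as abundances per transcript length: for low genes with 1 transcript of 500 to 1500 nt, 66.5 to 68.9% of values came within 0.05 of whole reads, with fragment length and scale fitted to favour that. A first scoring rule gave IR+Oligonol 3 a scale far below its group's, and the rule was changed after that result was seen, so the share is no independent check. Read numbers in the text come from that scale and are approximate. They also use the median length of a gene's protein-coding transcripts and depend on that choice. For RXRA this length was 1183 nt, against 3530.5 nt over all its transcripts, which would give more reads. On that scale, protein-coding genes rested on 7500259 to 8796622 reads a library, and a gene of the 10 on 48 to 27696.

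Estimated counts were rounded, filtered with filterByExpr, and scaled by TMM. The test was edgeR's quasi-likelihood test (version 4.0.16, robust, no term besides group) in R 4.3.3 with Benjamini-Hochberg adjustment. The GC trend was a natural spline (5 degrees of freedom) of each library's log2 CPM (prior count 2) on median transcript GC in GENCODE 29, estimated from protein-coding genes and passed to edgeR as offsets. It covered 97.7% of tested genes and would also remove a true change that follows GC. On simulated counts with such a trend, the GC-corrected fit called 96% of genes changed by 2 on the log2 scale and 21% of those changed by 1. The simulation differed from the data, since its counts had 1 spread for all genes, estimated without the GC correction. Without correction 1.54% of its unchanged genes were called, against 48.9% of all genes in the data. These shares are therefore not the sensitivity of the corrected fit on these data. Shares were compared with exact permutation tests (scipy 1.17.1). Alternatives were DESeq2 1.42.0, limma-voom (3.58.1), other scalings and filters, read equivalents, the replicate number as a block and each library left out. From each list of neighbouring genes the genes with the 3 smallest p-values were named, except some that are not reported here. The 10 genes, the lists and the alternatives were chosen with earlier results of these data known. No source used here says that replicates were separate cultures. P-values then reflect the spread among these samples, which may be technical.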

Additional observations from a re-analysis of the deposited data

How the results depend on the processing

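Of the 10 genes, the count called was 9 with TMM, RLE, upper-quartile and protein-coding TMM scaling, limma-voom, read equivalents and a threshold of 0.1, and 8 with DESeq2. It was 6 when every library had to have 10 counts, and 5 on library totals. Those 5 were RARA, RARB, CRABP1, CYP26A1 and DHRS3, all called higher with Oligonol, for all but RARB against the direction under TMM. The count was 2 with no filter on low counts, 1 at a threshold of 0.01, 1 with the GC trend removed, and 0 to 9 with each library left out. Over all genes 8112 of 16574 were called with TMM, 7143 of 16574 with DESeq2 and 11330 of 16574 on library totals. With 10 counts in every library it was 6696 of 11178, and with no filter 4567 of 42070. RLE, upper-quartile and protein-coding TMM scaling and limma-voom called 8004 to 8183 of 16574, and read equivalents 9366 of 19305. The number was 2180 at a threshold of 0.01 and 9835 at 0.1. It was 883 of 16200 with the GC trend removed, and 782 to 9492 with each library left out. RARB was higher under every setting run. On library totals alone the other 9 genes turned positive: RARA 0.53, RARG 0.25, RXRA 0.45, RXRB 0.23, CRABP1 0.64, CRABP2 0.14, CYP26A1 0.61, CYP26B1 0.80 and DHRS3 0.54, all below that scale's median of 1.53, while RARB was at 2.38. With the GC trend removed RARA (0.13), RXRA (0.05) and CYP26B1 (0.09) turned positive.

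Without the GC trend, and with each library also left out (added after the data were seen), edgeR called 0 to 491 genes and 0 of the 10, of which 1 to 3 had an unadjusted p under 0.05. RXRA then ranged from -0.07 to 0.14, CRABP1 from -0.13 to 0.04 and CYP26B1 from -0.08 to 0.40. At a threshold of 0.01 edgeR called 0 genes without the GC trend (4449 with an unadjusted p under 0.05), at 0.1 it called 2530, and on read equivalents 1730, with CYP26A1 again the 1 called of the 10. The share of RARB differed by 20.1 percentage points (17.4 to 24.2 with a library left out) and by 3.33 without the GC trend, and that of CYP26B1 by 5.09 (0.73 to 10.4) and 17.3. The share of CRABP1 differed by 0.363 to 0.631 points with a library left out and that of RXRB by -4.44 to -1.17. Without the GC trend the share of CRABP1 differed by 0.619 points and that of RXRB by -4.91.

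Same-numbered libraries did not visibly deviate together (correlations of 0.087, -0.009 and -0.147). With 3 libraries a group, and IR+Oligonol 2 apart from its group in GC content, this check cannot exclude a pairing. With the replicate block edgeR called 7030 genes and 8 of the 10, RXRA being lost (adjusted p = 0.0538), and with the GC trend removed as well 0 genes and 0 of the 10 (3993 genes and 2 of the 10 with an unadjusted p under 0.05). The cause was not tested.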
